A study of Mus musculus with 9 samples.

Results

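The genes described here are 39 genes of the machinery that releases synaptic vesicles, among the 49315 genes of a count table from whole mouse brain. They were chosen by name: the synapsins, the vesicle membrane proteins, the SNAREs with their recycling ATPase, the complexins, the synaptotagmins and Doc2 proteins, the Rab3 GTPases, the active zone and priming proteins, both main vesicular glutamate transporters and dynamin 1. Earlier results of these data were known when the genes were chosen. All 39 passed the filter on low counts, which left 18492 genes. The lowest count of a member in a library was 113 (Cplx3) and the highest 43805 (Snap25). PolyA-selected RNA had been sequenced from the brains of wild-type (WT) male C57BL/6J mice, young (3 months by the labels, n = 5) or old (33 months, n = 4: replicates 1, 3, 4 and 5), with 1 library per mouse and no treatment or allele that set the groups apart. A further old brain was not analysed here. The question was how transcripts differ between young and old brain.

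A neuron releases transmitter when a vesicle, loaded by a transporter and carried to the active zone by synapsins and Rab3, is tethered by RIM, bassoon and piccolo and primed by Munc13. The SNAREs on vesicle and plasma membrane then zip together, complexins hold the complex, and synaptotagmins trigger fusion when calcium enters. NSF takes the SNAREs apart again and dynamin pinches the recovered membrane from the surface. Many of these proteins come as paralogs that divide the brain between them: VGLUT1 (Slc17a7) marks cortical, hippocampal and cerebellar granule neurons, VGLUT2 (Slc17a6) thalamic, hypothalamic and brainstem neurons, and synaptotagmin 2 and VAMP1 are known from hindbrain and spinal cord.

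The upstream sequences of 5 members are shown because the results turn on them: Slc17a6, Vamp1, Syt2 and Sv2c were all highest in young replicates 3 and 5 and lowest in old replicate 1, and Slc17a7 was low in both of these young brains. Each is the 250 bases before the RefSeq start of transcription (GRCm38.p6), 5′ to 3′ on the gene's strand. Capitals mark the GC box (GGGCGG) and the CCAAT box (CCAAT), searched on both strands.
Slc17a6 (chr7:51621580-51621829, + strand): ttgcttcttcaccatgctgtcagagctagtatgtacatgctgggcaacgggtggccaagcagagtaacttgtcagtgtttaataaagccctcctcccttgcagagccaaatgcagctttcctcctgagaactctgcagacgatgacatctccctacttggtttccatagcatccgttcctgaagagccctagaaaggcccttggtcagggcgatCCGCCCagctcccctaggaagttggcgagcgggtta
Vamp1 (chr6:125215331-125215580, + strand): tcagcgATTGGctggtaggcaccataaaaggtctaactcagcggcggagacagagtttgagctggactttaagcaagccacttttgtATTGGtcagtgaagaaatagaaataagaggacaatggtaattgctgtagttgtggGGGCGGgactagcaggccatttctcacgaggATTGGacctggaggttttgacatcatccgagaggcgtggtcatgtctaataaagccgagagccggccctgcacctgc
Syt2 (chr1:134646362-134646611, + strand): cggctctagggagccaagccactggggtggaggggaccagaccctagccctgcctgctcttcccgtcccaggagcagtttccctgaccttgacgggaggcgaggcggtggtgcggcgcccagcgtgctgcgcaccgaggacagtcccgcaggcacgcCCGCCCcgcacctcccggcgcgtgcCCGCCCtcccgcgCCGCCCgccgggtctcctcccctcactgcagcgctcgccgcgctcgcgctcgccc
Sv2c (chr13:96132578-96132827, - strand): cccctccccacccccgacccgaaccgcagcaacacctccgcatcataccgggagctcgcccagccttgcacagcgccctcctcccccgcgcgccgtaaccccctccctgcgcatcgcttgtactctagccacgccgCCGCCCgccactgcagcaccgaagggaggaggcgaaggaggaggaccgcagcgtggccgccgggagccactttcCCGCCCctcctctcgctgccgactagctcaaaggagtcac
Slc17a7 (chr7:45163671-45163920, + strand): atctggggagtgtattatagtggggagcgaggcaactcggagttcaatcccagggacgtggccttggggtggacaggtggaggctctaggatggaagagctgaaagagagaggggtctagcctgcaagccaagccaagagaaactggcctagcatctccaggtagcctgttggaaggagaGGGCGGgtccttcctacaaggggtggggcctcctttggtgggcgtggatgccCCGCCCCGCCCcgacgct
The window of Slc17a7 held 3 GC boxes, that of Syt2 3, that of Sv2c 2, and those of Slc17a6 and Vamp1 1 each. Vamp1 alone of these 5 held CCAAT boxes, 3 of them, all on the reverse strand. A RefSeq window was matched for 29 of the 39 members, and 20 of these 29 (69.0%) held a GC box, against 33.0% of 32536 such windows of all genes. For a member only the window nearest its annotated start was taken, while the 32536 are all distinct windows. The shares here are thus of unlike sets. The start used for a member's window lay 68793 bases from the annotated one for Cplx2, 2565 for Syt11 and 790 for Rab3c. For the others it was at most 176 bases away. A CCAAT box was present in 7 of the 29 (24.1%, against 33.8% of all windows). The cAMP response element (TGACGTCA) was found in the window of Syn1 among the 29, and in 1.56% of all windows. Such matches describe the letters in these windows and show no factor's binding.

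After TMM adjustment the members summed to between 1.62% and 1.67% of the scaled library total in old brains. In young brains this was between 1.69% and 1.77%. These values depend on the adjustment and are not shares of the raw counts. Counts on genes per library ranged from 14229259 to 21150439, and mice of the same age varied with a biological coefficient of variation of 6.71%. Levels between genes are given as CPM (gene counts scaled to a common library total, after TMM adjustment) per kilobase of exon. They spanned 205-fold, from Snap25 at 294 through Cplx1 (289), Dnm1 (231), Cplx2 (221), Vamp2 (212) and Rab3a (174) down to Doc2a (6.46), Cplx3 (2.94) and Syn3 (1.44). In this order, the ranges over the 9 brains were apart for only 9 of the 38 neighbouring pairs. Snap25 and Cplx1 overlapped, as did Dnm1, Cplx2 and Vamp2 in turn, while Rab3a was apart from both of its neighbours and Cplx3 and Syn3 were apart from all above them.

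In old brain 9 of the 39 members (23.1%) were lower and 0 higher at a Benjamini-Hochberg adjusted p under 0.05 over all genes tested (edgeR's quasi-likelihood test). Among all 18492 genes, 11.0% differed at this threshold, 4.83% being lower and 6.20% higher in old brain. The 9 genes were Slc17a6, Syt2, Doc2b, Syt3, Unc13a, Rab3c, Syngr3, Syngr1 and Syt11, and their log2 fold changes (old minus young) lay between -0.40 and -0.13. No member passed a log2 fold change of 0.58. A total of 20 of the 39 members had an unadjusted p under 0.05 in edgeR's test, as did 4803 of all 18492 genes. The fold change was below 0 for 33 members and above it for 6, against 9249 and 9243 of all genes. The median log2 fold change was -0.10 over the members and -9.2e-05 over all genes. On log2(TPM + 1), where the median of all genes was -0.14 and that of the members -0.27, Slc17a6 alone of the members passed the test. Among the 10970 genes at least as abundant as the lowest member, the median was -0.0099 and 7.06% were lower at the same threshold.

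**Figure D1:**
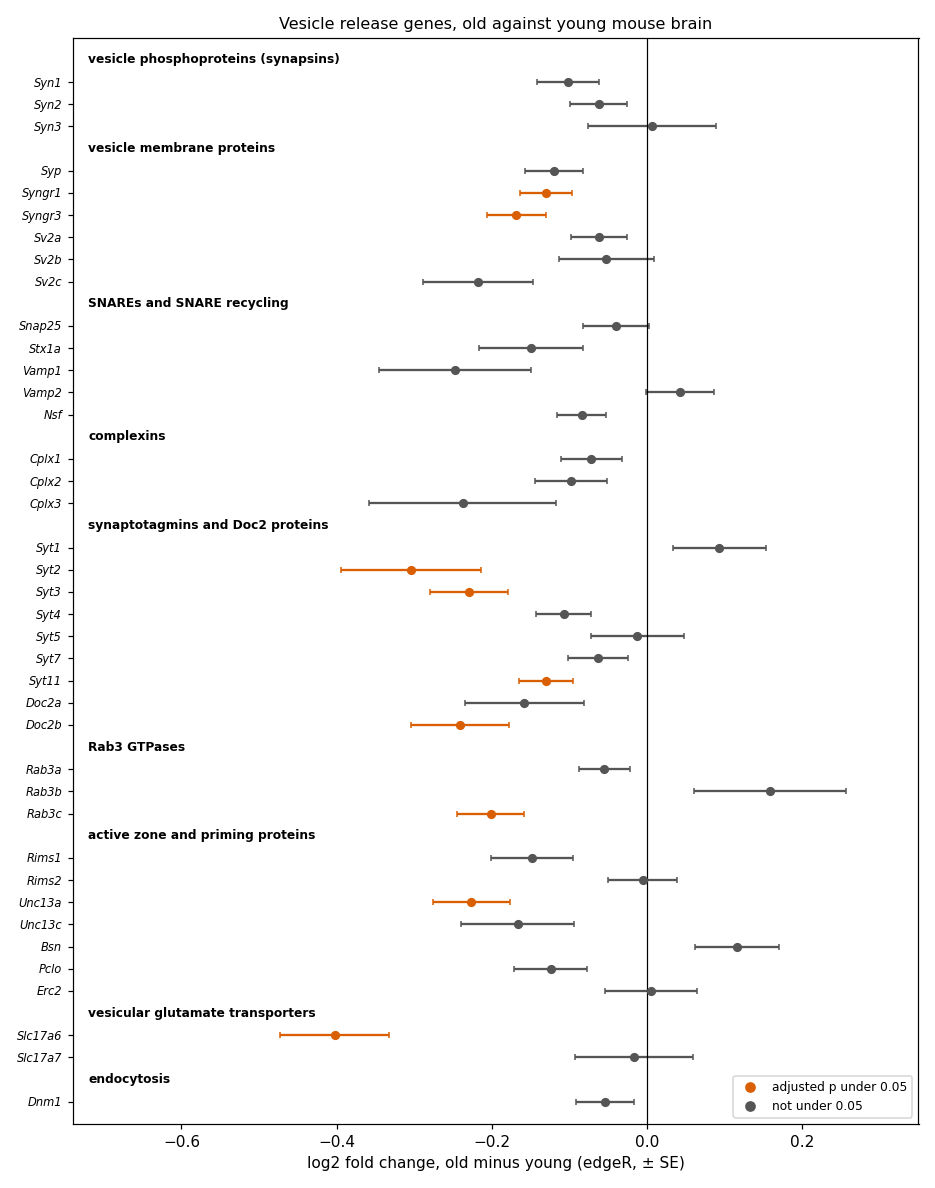
Log2 fold change of each of the 39 members between 4 old and 5 young brains (horizontal axis, edgeR, old minus young), ordered by role, with bars of 1 SE on each side. The 9 genes with an adjusted p under 0.05, in orange, all lie left of 0, from Slc17a6 at -0.40 to Syt11 and Syngr1 at -0.13, and Rab3b at 0.16 lies farthest right.

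The levels of 10 members (25.6%) did not overlap between the ages and were lower in every old brain, against 6.08% of all genes. These were Syp, Syngr1, Syngr3, Nsf, Syt3, Syt4, Syt11, Rab3c, Unc13a and Slc17a6. General neuronal genes moved the same way: of 16 pan-neuronal markers, none of them at 0 in any brain, 8 were lower and 0 higher, with a median log2 fold change of -0.16, and their summed level was 6265 to 6563 CPM in young and 5686 to 5901 CPM in old brains. The part of this in the members' values was not tested. Microglia markers (2 of 10 higher), summed, lay between 208 and 314 CPM in young and 287 and 310 CPM in old brains, endothelial markers (4 of 10 higher) between 287 and 313 and between 322 and 368 CPM, and oligodendrocyte markers (5 of 12 higher, 3 lower) between 6617 and 7751 and between 7209 and 8875 CPM. Cerebellar granule cell markers (1 of 11 lower, 0 higher, median log2 fold change -0.23) summed to between 931 and 1228 CPM in young and 669 and 1157 CPM in old brains. In whole tissue, fewer cells of a type and less RNA per cell cannot be told apart.

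Brains also differed in how much Hox RNA they held. Hox genes, which are active in hindbrain and spinal cord and not in the forebrain, summed to 25.5, 25.0, 58.7, 29.6 and 39.8 CPM in young replicates 1 to 5 and to 0.744, 7.05, 41.3 and 21.6 CPM in old replicates 1, 3, 4 and 5. Old replicate 1 thus had next to none, with 14 counts over 39 Hox genes, and young replicate 3 had most. The glycine transporter Slc6a5, a gene of inhibitory neurons of brainstem and spinal cord, followed a similar order, from 9.51 CPM in old replicate 1 to 80.3 CPM in young replicate 3. All 14 Hox genes that were tested had a fold change below 0 in old brain, though 0 were called, so the Hox sum goes partly with age. Less caudal tissue and less Hox RNA with age cannot be told apart, also in a fit that uses this sum. The labels say only that whole brain was taken, and the Hox list was chosen after values had been seen. Fits with the Hox sum as a covariate, and with old replicates 4 and 5 alone against the young, are therefore given beside the members' results. With the covariate 8 members were called, all lower, 6 of them among the 9 above, and 7.45% of all genes were called (2.93% lower). With old replicates 4 and 5 alone 2 members were called, Syt3 and Slc17a6, and 5.07% of 19148 genes, and 35 members had a fold change below 0. Of the 8 pan-neuronal markers called above, Nefm and Elavl4 lost the call with the covariate (edgeR adjusted p = 0.197 and 0.0960). With old replicates 4 and 5 alone Stmn2, Thy1 and Gap43 kept the call. Tubb3, Map2, Nefm, Nefh and Elavl4 lost it there (edgeR adjusted p from 0.0508 to 0.238).

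**Figure D2:**
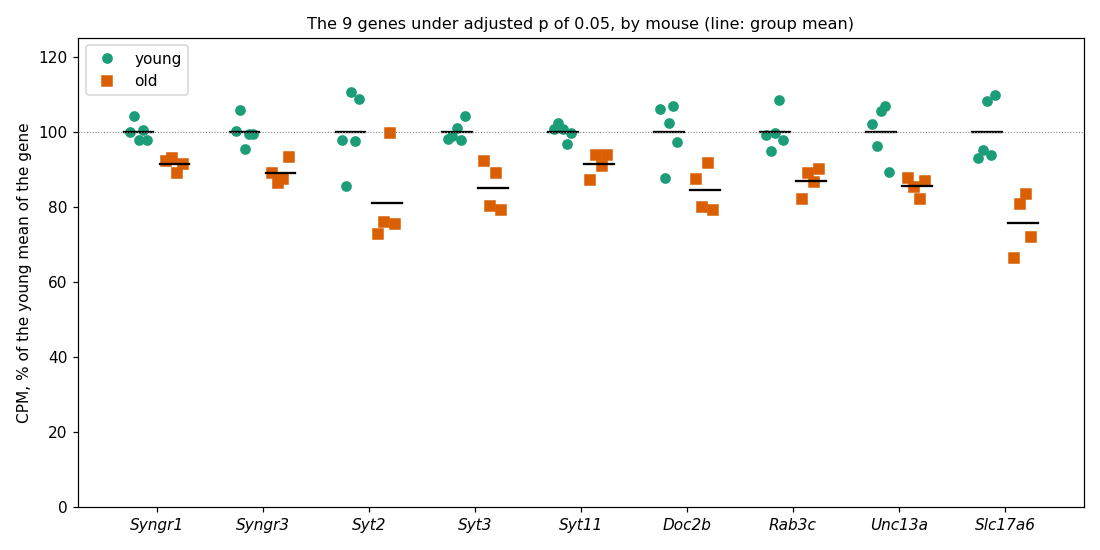
Level of the 9 genes with an adjusted p under 0.05 in each brain (CPM, as a percentage of the young mean of that gene), with young brains as circles, old brains as squares and a line at each group mean. The ages are apart for Syngr1, Syngr3, Syt3, Syt11, Rab3c, Unc13a and Slc17a6, and overlap for Syt2 and Doc2b.

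The vesicular glutamate transporters load glutamate into vesicles, and of these genes Slc17a6 was lower in old brain while Slc17a7 did not pass the test. Slc17a6 (VGLUT2, chr7:51622006-51671119, + strand) was at 98.0, 100.1, 113.8, 98.9 and 115.6 CPM in young replicates 1 to 5 and at 70.0, 85.1, 87.8 and 75.7 CPM in old replicates 1, 3, 4 and 5. Every old brain was below every young one. It fell by 0.40 on the log2 scale (SE 0.070, edgeR adjusted p = 0.00299), the farthest from 0 of the 39, and was called with each brain left out in turn. With the Hox covariate its log2 fold change was -0.30 (SE 0.064, adjusted p = 0.0140), and with old replicates 4 and 5 alone -0.36 (adjusted p = 0.0245). Slc17a7 (VGLUT1) was at 836.5, 882.4, 706.0, 834.4 and 684.3 CPM in young and 856.5, 782.3, 692.3 and 787.7 CPM in old brains, with a log2 fold change of -0.017 (SE 0.076, edgeR adjusted p = 0.918). Its ages overlapped throughout, and its 3 lowest brains (young 3 and 5, old 4) were the 3 with the highest Hox sum. With the covariate its fold change was -0.16 (adjusted p = 0.117).

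Among the synaptotagmins and Doc2 proteins, the calcium sensors and their relatives, 4 of 9 were lower in old brain. Syt3, a synaptotagmin of high calcium affinity (chr7:44384102-44400187, + strand), was at 56.2, 56.7, 57.9, 56.1 and 59.6 CPM in young and 52.7, 46.0, 51.0 and 45.3 CPM in old brains. The young brains lay close together and all old ones below them. Its log2 fold change was -0.23 (SE 0.050, edgeR adjusted p = 0.0101), and -0.22 with the Hox covariate (adjusted p = 0.0439). Syt11 (chr3:88744700-88775164, - strand), a family member that does not bind calcium, was at 859, 873, 860, 825 and 852 CPM in young and 744, 801, 775 and 801 CPM in old brains. These groups were apart, with a fold change of -0.13 (SE 0.035, edgeR adjusted p = 0.0292). The call was lost without old replicate 1 or 4 or young replicate 1, 2, 3 or 5 (adjusted p from 0.0536 to 0.0939), with the Hox covariate (0.0948) and with old replicates 4 and 5 alone (0.157).

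Syt2, the fast calcium sensor of caudal synapses (chr1:134646677-134762593, + strand), was at 256.0, 223.7, 289.5, 255.1 and 284.9 CPM in young and 190.5, 198.6, 260.9 and 197.4 CPM in old brains. Old replicate 4 lay among the young brains, and the other old brains lay below all of them. Its fold change was -0.30 on the log2 scale (SE 0.091, edgeR adjusted p = 0.0450), but -0.14 with the Hox covariate (adjusted p = 0.210) and -0.19 with old replicates 4 and 5 alone (0.352). The call stood without young replicate 2 or old replicate 4 and was lost without any other brain (adjusted p from 0.0572 to 0.123), and in DESeq2's test (0.0855). Doc2b, a sensor of spontaneous and asynchronous release, was at 60.4, 50.0, 58.3, 60.9 and 55.3 CPM in young and 49.9, 45.6, 52.3 and 45.1 CPM in old brains. Young replicate 2 overlapped the old brains. It fell by 0.24 (SE 0.063, edgeR adjusted p = 0.0257), and the call was lost without old replicate 3 or 5 or young replicate 1, 3 or 4 (0.0519 to 0.0782), with the Hox covariate (0.110) and with old replicates 4 and 5 alone (0.137).

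The other 5 genes of this family did not pass the test. Syt1, the fast sensor of forebrain synapses, was at 998 to 1173 CPM in young and 1032 to 1226 CPM in old brains (log2 fold change 0.093, SE 0.060), and at -0.013 with the Hox covariate. Syt4 was lower in every old brain, with 192 to 206 CPM against 208 to 223 CPM and a fold change of -0.11 (edgeR adjusted p = 0.0675; 0.0398 in DESeq2's test). Exons of Gm26658 on the opposite strand cover 14.5% of the exon bases of Syt4. Syt7, a sensor of slow release, had a fold change of -0.063, Syt5 -0.013 and Doc2a -0.16. Exons of Doc2a share 39.4% of their bases with Ino80e on the opposite strand, so its counts are uncertain.

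The Rab3 GTPases bring vesicles to the active zone. Rab3c (chr13:110054187-110280996, - strand) was at 526, 504, 529, 576 and 520 CPM in young and 436, 473, 460 and 479 CPM in old brains. The groups were apart, and it fell by 0.20 on the log2 scale (SE 0.043, edgeR adjusted p = 0.00937; 0.0393 with the Hox covariate). With old replicates 4 and 5 alone the call was lost (-0.17, adjusted p = 0.0848). Rab3a, per length the most abundant of the 3, ranged from 381 to 412 CPM in young and 374 to 385 CPM in old brains, with a fold change of -0.055 that did not pass the test. Rab3b was at 36.3 to 45.9 and 36.3 to 54.4 CPM, with a fold change of 0.16 (SE 0.098) and an adjusted p of 0.337 in edgeR's test.

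Of the 7 active zone and priming genes 1 was lower in old brain. Unc13a (chr8:71624417-71671757, - strand) encodes the main Munc13 priming factor, which opens syntaxin for SNARE assembly. Its level was 450, 424, 465, 471 and 394 CPM in young and 386, 376, 362 and 383 CPM in old brains. Young replicate 5 was the lowest young brain and still above all old ones, and the fold change was -0.23 (SE 0.050, edgeR adjusted p = 0.0101), or -0.24 with the Hox covariate (0.0288). With old replicates 4 and 5 alone the call was lost at the same fold change (-0.24, adjusted p = 0.0585). Exons of Colgalt1 on the opposite strand cover 3.92% of its exon bases. Unc13c, the Munc13 of cerebellar granule neurons, had a fold change of -0.17 (SE 0.073, adjusted p = 0.164) and Rims1, the RIM scaffold that recruits calcium channels, -0.15 (SE 0.053, adjusted p = 0.0906), which became 0.0458 without old replicate 1. Its relative Rims2 was at -0.0054 and the scaffold Erc2 at 0.0052.

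Bassoon and piccolo, a pair of large scaffolds of the active zone, lay on either side of 0 without passing the test. Bsn was at 619, 620, 584, 690 and 568 CPM in young and 704, 690, 635 and 644 CPM in old brains (log2 fold change 0.12, SE 0.054, edgeR adjusted p = 0.189). Young replicate 4 was as high as the old brains, and without it the adjusted p was 0.0398 at a fold change of 0.16. Pclo was at 365, 372, 347, 416 and 368 CPM in young and 340, 357, 338 and 337 CPM in old brains (-0.12, SE 0.047, adjusted p = 0.108). The ratio of Bsn to Pclo within a library was 1.70, 1.67, 1.68, 1.66 and 1.54 in young and 2.07, 1.93, 1.88 and 1.91 in old brains. The ages were apart, with a difference in mean log2 ratio of 0.24 (two-sided exact permutation test over all assignments of the 9 brains to the ages, p = 0.00794, the smallest this design can give). Adjusted over the 12 pairs of related genes compared, this was 0.0952, the lowest that a single pair can reach here.

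**Figure D3:**
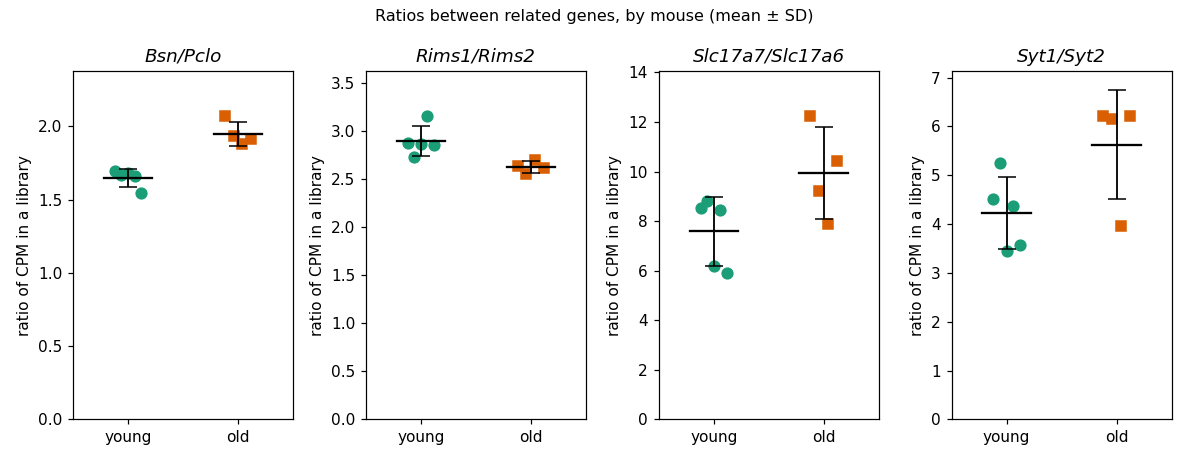
Ratio of the CPM of related genes within each library for 4 of the 12 pairs, with young brains as circles, old brains as squares, and the mean and SD of each age. Bsn/Pclo (1.54 to 1.70 in young, 1.88 to 2.07 in old) and Rims1/Rims2 did not overlap between the ages, and Slc17a7/Slc17a6 and Syt1/Syt2 did.

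No other pair passed an adjusted p of 0.05 either. Rims1 to Rims2 was 2.74 to 3.16 in young and 2.56 to 2.70 in old brains (log2 difference -0.14, exact permutation p = 0.0159, adjusted 0.0952). Slc17a7 to Slc17a6 was 8.53, 8.82, 6.20, 8.44 and 5.92 in young and 12.2, 9.20, 7.89 and 10.4 in old brains, a log2 difference of 0.39 (exact permutation p = 0.103, adjusted 0.202). The highest ratio belonged to old replicate 1 and the lowest to young replicates 5 and 3. Syt1 to Syt2 was 3.45 to 5.24 in young brains, near 6.2 in old replicates 1, 3 and 5 and 3.95 in old replicate 4 (difference 0.40, exact permutation p = 0.0714, adjusted 0.202). Of the remaining 8 pairs, none had an adjusted p below 0.202.

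All 6 vesicle membrane genes had a fold change below 0, and 2 passed the test, both of them synaptogyrins, tetraspan proteins of the vesicle. Syngr1 (chr15:80091334-80119501, + strand) was at 517, 538, 506, 520 and 506 CPM in young and 476, 482, 460 and 472 CPM in old brains. Syngr3 (chr17:24685092-24689955, - strand) was at 128, 135, 122, 127 and 127 CPM in young and 114, 110, 112 and 119 CPM in old brains. Neither gene's groups overlapped. The log2 fold change was -0.13 for Syngr1 (SE 0.033, edgeR adjusted p = 0.0218) and -0.17 for Syngr3 (SE 0.038, adjusted p = 0.0122). With the Hox covariate the adjusted p was 0.0181 and 0.0191, and with old replicates 4 and 5 alone 0.0743 and 0.121. Syngr1 lost the call without old replicate 4 (0.0628) or old replicate 5 (0.0518). Synaptophysin, Syp, the tetraspan protein commonly used to stain synapses, was at 847, 903, 817, 838 and 823 CPM in young and 791, 783, 756 and 784 CPM in old brains. It was lower in each old brain and just missed the threshold (-0.12, SE 0.037, edgeR adjusted p = 0.0539), passing it with the Hox covariate (0.0304), without young replicate 3 (0.0499) and in DESeq2's test (0.00879). Exons of Gm14703 on the opposite strand cover 16.8% of the exon bases of Syp.

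The SV2 genes encode transporter-like glycoproteins of the vesicle. Sv2c was at 102.3, 103.0, 122.5, 109.4 and 122.4 CPM in young and 84.6, 93.7, 107.2 and 98.8 CPM in old brains (log2 fold change -0.22, SE 0.071, edgeR adjusted p = 0.0647). Its levels followed the Hox sum, and with that covariate the fold change was -0.082 (adjusted p = 0.345), while without old replicate 4 it was -0.28 (0.0263) and in DESeq2's test -0.22 (0.0312). Sv2a and Sv2b had fold changes of -0.062 and -0.053, neither of which passed the test.

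**Figure D4:**
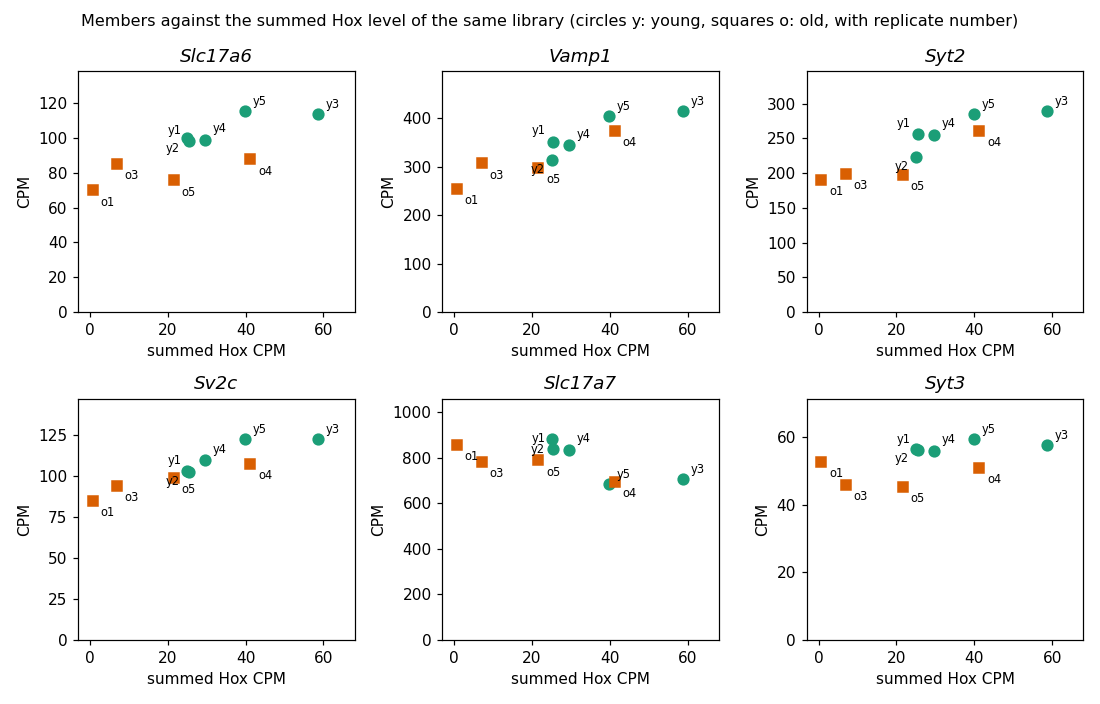
Level of 6 members (CPM, vertical axes from 0) against the summed CPM of the Hox genes in the same library, for 5 young (circles, y) and 4 old brains (squares, o), each with its replicate number. Vamp1 and Syt2 are high and Slc17a7 is low in the brains with the highest Hox sums (y3, o4, y5). Sv2c is high in y3 and y5, and in o4 it is the highest of the old brains but below y4. Slc17a6 is high in y3 and y5 but in o4 below every young brain. For Slc17a6 and Syt3 every old brain lies below every young one. Young brains of a like Hox sum exist for o4 and o5 only. The sums of o1 and o3 (0.744 and 7.05 CPM) are far below the young range (25.0 to 58.7 CPM).

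None of the 5 SNARE and SNARE recycling genes passed the test. Vamp1, the vesicle SNARE of caudal neurons, was at 351.1, 314.6, 415.2, 344.5 and 405.5 CPM in young and 253.8, 307.3, 374.1 and 297.8 CPM in old brains. Its 3 highest brains were again young 3 and 5 and old 4 (log2 fold change -0.25, SE 0.098, edgeR adjusted p = 0.125; without old replicate 4 -0.35, 0.0219). With the Hox covariate the fold change was -0.056 (adjusted p = 0.657). Vamp2, its counterpart over most of the brain, was at 768 to 846 and 766 to 880 CPM (0.042). Snap25 was at 1857 to 2139 and 1934 to 1986 CPM (-0.040). The ATPase gene Nsf was lower in every old brain, 702 to 734 against 754 to 780 CPM, at a fold change of -0.084 (edgeR adjusted p = 0.106; 0.0129 in DESeq2's test). Stx1a, the syntaxin of the plasma membrane, was at 132, 135, 113, 133 and 111 CPM in young and 121, 119, 103 and 109 CPM in old brains. Its fold change of -0.15 (SE 0.067, edgeR adjusted p = 0.171) became -0.27 (SE 0.049, adjusted p = 0.00522) with the Hox covariate.

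**Figure D5:**
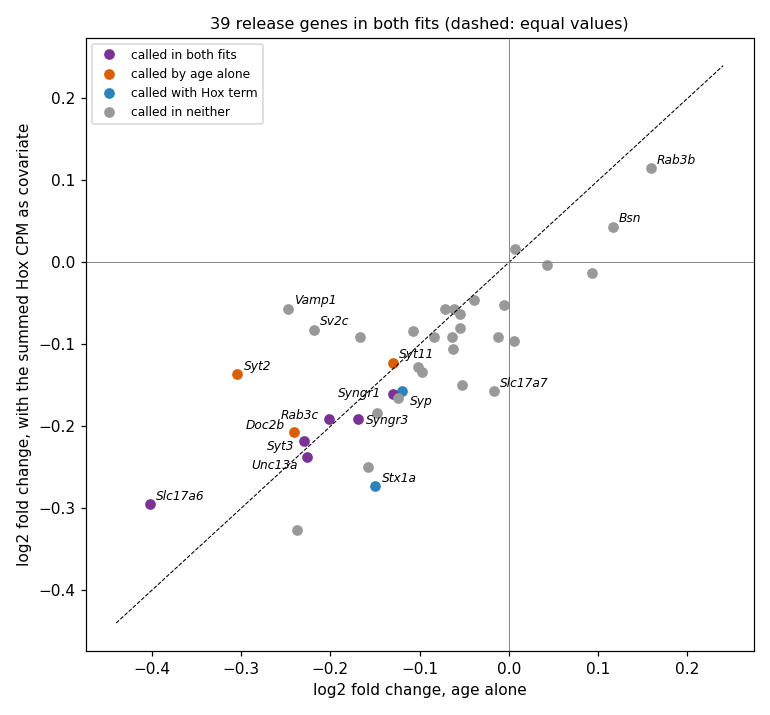
Log2 fold change (old minus young) of the 39 members fitted with age alone (horizontal axis) and with the summed Hox CPM of each library as a covariate (vertical axis), with a dashed line at equal values. Of the members, 6 are called in both fits, 3 with age alone (Syt2, Syt11, Doc2b) and 2 with the covariate alone (Syp, Stx1a), and Vamp1, Syt2 and Sv2c lie farthest above the line.

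The synapsins, complexins and dynamin 1 did not pass the test. The synapsins tether vesicles to each other and to actin. Syn1 had a log2 fold change of -0.10 (SE 0.040, edgeR adjusted p = 0.121), Syn2 -0.062 and Syn3, whose locus holds Timp3 on the opposite strand (14.1% of its exon bases), 0.0069. The complexins, which clamp and assist the SNARE complex, were at -0.072 (Cplx1), -0.098 (Cplx2) and -0.24 (Cplx3, SE 0.12, adjusted p = 0.233). Dnm1, the dynamin of synaptic endocytosis, was at 1204 to 1280 CPM in young and 1154 to 1263 CPM in old brains (-0.054).

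Further genes of the pathway were counted in 3 lists, chosen by name with earlier results of these data known. Of 53 other release genes 51 were tested, 6 of them lower and 0 higher in old brain (median log2 fold change -0.037). Of 26 other vesicle proteins 1 was higher (median -0.030), and of 28 endocytosis genes 2 were higher and 1 lower (median -0.025). Together 10 of 105 (9.52%) were called, near the 11.0% of all genes. The 6 farthest from 0 among the called were Syngr2, a synaptogyrin found outside neurons too (log2 fold change 0.42, SE 0.11), Lin7b (-0.27), an adaptor at synaptic junctions, the vesicle GTPase Rab27b (-0.27), Syt12 (-0.26), the dynamin found in most cells, Dnm2 (0.24), and the endocytic scaffold Itsn2 (0.17), with edgeR adjusted p from 0.00387 to 0.0250. Syngr2 lost the call with the Hox covariate (0.0513) and without old replicate 4 or 5 or young replicate 1, 3 or 5 (0.0531 to 0.0809). Rab27b lost it with the covariate (0.0956) and without old replicate 1, 4 or 5 or young replicate 5 (0.0503 to 0.0682). The 3 lists together had 7 lower and 3 higher. Without old replicate 4, and also without young replicate 2, this was 4 lower and 6 higher, without old replicate 3 it was 3 and 3, and without young replicate 5 it was 3 and 2.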

How the data were processed

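PolyA-selected RNA of whole brain was sequenced from 5 young and 4 old male mice, 1 library per mouse, on an Illumina instrument. The authors trimmed the reads, aligned them with STAR to Ensembl GRCm38 (mm10 per the labels) and counted uniquely mapped reads on exons with featureCounts. They deposited raw counts per gene, TPM values, for which gene lengths are not given in the sources used here, and normalized counts, which were not used. Whether counting used strand is not given in the sources used here for these libraries, and 14 of the 39 genes share exon bases with a gene on the opposite strand. Of the columns of each file, 1 matched no sample and was not used.

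Genes were kept with filterByExpr (minimum count 10, minimum total count 15), scaled with TMM and tested with edgeR's quasi-likelihood test (edgeR 4.0.16, R 4.3.3) on age, with Benjamini-Hochberg adjustment over all genes. A call is an adjusted p under 0.05. SEs are the log2 fold change divided by the square root of the F statistic. Ratios of 12 pairs of related genes were tested by exact permutation. The fit and the permutation test were checked on simulated data. Alternatives were DESeq2 1.42.0, limma 3.58.1 on log2(TPM + 1) and log2(TPM + 0.1), other scalings, no filter, gene length correction, other thresholds, a replicate block and each mouse left out. The Hox covariate and the fit on old replicates 4 and 5 were added after seeing the data. Symbols and positions came from GENCODE M21 (GRCm38), with symbols for 48970 IDs, and upstream sequences from RefSeq.

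The 39 genes and the lists were chosen with earlier results of these data known. All 39 are named, and of the other pathway lists the 6 called genes farthest from 0. Some genes of these lists are not reported here by name. Libraries of one age differed by more than sampling noise, so each counted as a replicate. P-values measure the spread between these mice.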

Additional observations from a re-analysis of the deposited data

Results flagged for a closer look

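Among 130 combinations of a gene, ratio or marker sum with an age, 9 had a brain standing far from the others of its age by Dixon's test, where about 6.5 are expected by chance. The value given first is the gap to the nearest brain as a share of the range of the group, both on a log scale. Among the members, Syt2 in old replicate 4 (0.868) reached 260.9 CPM, with the remaining old brains at 190.5 to 198.6 CPM, and the ratio of Syt1 to Syt2 in that brain (0.978) was 3.95 against 6.15 to 6.21. Sv2a in old replicate 5 (0.881) was at 565.7 CPM against 518.1 to 523.5 CPM. The ratio of Bsn to Pclo in young replicate 5 (0.756) was 1.54 against 1.66 to 1.70.

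Of the marker sums, old replicate 1 was highest among old brains for cortex and hippocampus excitatory markers (0.863; 2324 CPM against 2059 to 2093 CPM) and for striatal neuron markers (0.934; 1287 CPM against 1109 to 1120 CPM). Olfactory bulb markers were, among the young, highest in young replicate 2 (0.772; 229 CPM against 176.9 to 187.6 CPM). Old replicates 1, 3, 4 and 5 were at 204.6, 216, 174.1 and 335.9 CPM for these markers. Microglia markers were highest in young replicate 4 (0.782; 314.3 CPM against 208.2 to 227.8 CPM) and, among the old, in old replicate 5 (0.838; 310.2 CPM against 287.3 to 290.9 CPM).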

How the results depend on the processing

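Against 9 members called, DESeq2's test, other size factors, upper quartile scaling, length correction and no filter gave 10 to 13, all lower. Leaving out 1 brain gave 6 to 9, all lower except without young replicate 4 (7 lower and 1 higher). The shares of all genes called in these fits are not reported here. On log2(TPM + 1) and log2(TPM + 0.1) 1 was called (Slc17a6), and with old replicates 4 and 5 alone 2. At an adjusted p under 0.01 2 were called. With a log2 fold change over 0.58 0 were called (unadjusted edgeR p under 0.05: 20 members, against 4803 of all 18492 genes). For the other pathway lists (10 called) the alternatives gave 17 with length correction, 2 on each TPM scale, 0 over 0.58 and 5 to 10 leaving out 1 brain. The members' median moved from -0.102 to -0.127 with length correction, -0.266 on log2(TPM + 1), where that of all genes was -0.142, and -0.267 on log2(TPM + 0.1).

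The replicate numbers were not taken as pairs: deviations of same-numbered mice correlated at 0.18, -0.12, 0.0971 and -0.0317. With the replicate block 9 members were called, not all the same genes: Syngr1 (adjusted p = 0.0929) and Syt11 (0.0905) were lost and Sv2c (0.0257) and Rims1 (0.0435) gained. The block gave 6 lower and 5 higher in the other lists.

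The members and pairs that changed sign passed the test in neither of the fits concerned. The TPM scales shift all genes, with medians of -0.142 and -0.162, so signs there are not comparable: on log2(TPM + 1) and log2(TPM + 0.1) Bsn was at -0.0462 and -0.0465, Syn3 at -0.124 and -0.152, Vamp2 -0.123 and -0.123, Syt1 -0.0719 and -0.0721, Rab3b -0.0156 and -0.016 and Erc2 -0.157 and -0.161. All of these lay above the median of all genes on the same scale except Erc2 on log2(TPM + 1). With the Hox covariate Vamp2 was at -0.00284, Syt1 -0.0125 and Erc2 -0.0957, with old replicates 4 and 5 alone Syn3 was at -0.0653, Erc2 -0.0724 and the Sv2a/Sv2b ratio 0.0863, without the filter Syn3 -0.00367 and Erc2 -0.00502, and with length correction Erc2 -0.00696. With the replicate block Syt5 was at 0.0376, Rims2 0.00453 and Slc17a7 0.032. Leaving out 1 brain, Syn3 ranged from -0.0507 to 0.0642, Syt5 from -0.0525 to 0.0403, Rims2 from -0.04 to 0.026, Erc2 from -0.0364 to 0.0701, Slc17a7 from -0.0616 to 0.0361, and the log2 differences of Cplx2/Cplx1 from -0.0757 to 0.0208, Sv2a/Sv2b from -0.0778 to 0.0291 and Unc13a/Unc13c from -0.131 to 0.026. The cause of the changes outside the TPM scales was not tested. Depth limited the members little, since the lowest count was 113, and the number of mice limits the precision.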
